A study of Rattus norvegicus with 18 samples.

Results

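Poly(A) RNA of cervical dorsal root ganglia (DRG) was examined for 8 genes of the blood-nerve barrier, which are the efflux transporters *Abcg2* and *Abcb1a*, the carriers *Slco1c1* and *Slc2a1*, and the junction genes *Cldn5*, *Cldn1*, *Ocln* and *Tjp1*. They are 8 of the 15075 RefSeq identifiers in the count table, and each symbol matched 1 identifier. *Abcg2* and *Slco1c1* were chosen because their level was lower in the injured rats of these same data, by a rule with no stated threshold. Their differences from naïve rats are therefore a description with no test, while the other 6 genes were tested in every comparison.

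The blood-nerve barrier is made by endothelial cells of the vessels inside the nerve and by the perineurium, a sheath of flattened cells around the axon bundles. Tight junctions close the gaps between these cells: claudins and occludin span the membrane and the scaffold protein ZO-1, the product of *Tjp1*, ties them to the actin cytoskeleton. Transporters then decide which solutes cross, and vessels around the cell bodies of a DRG are known to be leakier than those of the nerve.

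All rats were adults of the lister hooded strain, with 6 in each of 3 groups, and each library held the C6-C8 DRG of the treated side of 1 animal. Naïve rats (rats 41, 42, 43, 44, 45 and 49) had neither an operation nor a vector. The bPYX+GFP rats (rats 5, 15, 18, 21, 52 and 57) had both corticospinal tracts cut in the medullary pyramids and, on the next day, an AAV1 vector with EGFP under the CMV promoter put unilaterally into the forelimb flexors. The bPYX+NT3 rats (rats 2, 11, 17, 23, 39 and 40) had the same lesion and received human neurotrophin-3 from the same kind of vector, and tissue of both injured groups was taken 10 weeks after the lesion. No group had the lesion or the vector alone, so lesion, surgery and vector cannot be told apart in a difference from naïve rats. In such bulk tissue, fewer cells of a type and less RNA per cell cannot be told apart either.

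Groups followed the headings of the count table of all rats. The separate counts of 17 of the 18 rats are recorded under a title of another group, and under that grouping *Abcg2* and *Slco1c1* were higher, not lower, in injured rats (log2 fold changes 0.20 and 0.12 with GFP, 0.40 and 0.66 with NT3 against naïve). The study formed its groups by the same rat numbers as the headings, and these groups are used throughout. The libraries held between 10057787 and 16002410 read-pairs on genes (median 13038873). Between 30.8% and 34.6% of read-pairs fell on no annotated feature, and rats 11 (30.8%) and 57 (31.7%) had the lowest share of all. Neuron markers such as *Nefh* and *Avil* and myelin genes such as *Pmp22* were abundant in all 3 groups, whereas the neuron marker *Snap25* had a mean of only 1.21 to 1.87 normalized counts per group. All 15 endothelial markers found in the table, of 19 listed, had reads, with a summed level of 3579 to 4605 normalized counts among the naïve rats, 3801 to 4254 with GFP and 3400 to 5125 with NT3. A normalized count is the read count scaled to the mean effective library size of the 18 rats, and it was compared only within a gene because no transcript lengths were used.

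Promoters of 3 genes are shown because *Abcg2* carries the lower level and *Slc2a1* and *Cldn5* were the pair of genes that varied most alike across rats. RefSeq promoters (build GRCr8, a later build than that of the counts) were found for 7 of the 8 genes, and the 250 bases before the start of transcription are given 5′ to 3′ on the strand of the gene. Capitals mark the GC box GGGCGG, the xenobiotic response core GCGTG and the hypoxia response core ACGTG on either strand, and none of the marked stretches overlap.
Abcg2 (chr4:89075224-89075473, plus strand): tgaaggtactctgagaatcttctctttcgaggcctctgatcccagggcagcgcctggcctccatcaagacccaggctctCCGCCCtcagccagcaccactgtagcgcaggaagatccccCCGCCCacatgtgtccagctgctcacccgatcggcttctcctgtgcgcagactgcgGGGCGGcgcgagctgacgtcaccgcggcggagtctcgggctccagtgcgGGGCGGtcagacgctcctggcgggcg
Slc2a1 (chr5:138002272-138002521, plus strand): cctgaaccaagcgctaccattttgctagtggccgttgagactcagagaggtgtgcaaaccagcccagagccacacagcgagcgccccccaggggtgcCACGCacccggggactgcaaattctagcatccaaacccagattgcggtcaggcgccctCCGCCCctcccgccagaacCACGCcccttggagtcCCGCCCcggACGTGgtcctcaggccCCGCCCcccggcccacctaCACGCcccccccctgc
Cldn5 (chr11:95718599-95718848, minus strand): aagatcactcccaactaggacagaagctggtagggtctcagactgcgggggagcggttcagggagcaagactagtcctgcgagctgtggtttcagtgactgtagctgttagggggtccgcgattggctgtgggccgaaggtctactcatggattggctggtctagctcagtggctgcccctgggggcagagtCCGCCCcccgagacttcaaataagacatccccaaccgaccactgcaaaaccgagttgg
The *Abcg2* window held 4 GC boxes and neither of the other motifs. The *Slc2a1* window held 3 GC boxes, 3 xenobiotic cores and 1 hypoxia core, and the *Cldn5* window held 1 GC box. Of 33469 RefSeq windows of this length, 30.5% held a GC box, 25.9% a xenobiotic core and 16.6% a hypoxia core. G and C made up 67.2% of the *Abcg2* window, 68.4% of that of *Slc2a1* and 58.4% of that of *Cldn5*, against a median of 51.2% over all windows. These matches describe letters and were not tested for binding.

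Of the efflux transporters, *Abcg2* (NM_181381) encodes the breast cancer resistance protein, which pumps drugs and toxins back into the blood. Its normalized counts were 834, 1085 and 1143 in naïve rats (lowest, median and highest of 6), 660.3, 826 and 967 in bPYX+GFP rats, and 567, 811 and 918 in bPYX+NT3 rats. All 12 injured rats lay below the naïve median, and 3 bPYX+GFP and 4 bPYX+NT3 rats lay below the lowest naïve rat, so the groups overlapped only through naïve rat 41. The next lowest naïve rat had 1026 normalized counts, above every injured rat. The level in bPYX+GFP rats was 0.775 times that of naïve rats (log2 fold change -0.37, SE 0.0942) and that in bPYX+NT3 rats 0.726 times (-0.46, SE 0.116). Since these contrasts chose the gene, no test is attached to them. Between bPYX+NT3 and bPYX+GFP rats, a contrast that did not choose it, the fold was 0.937 with a 95% interval of 0.788 to 1.11 (edgeR unadjusted p = 0.437, exact permutation p = 0.478).

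*Abcb1a* (NM_133401) encodes P-glycoprotein, the other main drug pump of barrier endothelium. It had 682, 773 and 897 normalized counts in naïve rats, 575, 716 and 828 in bPYX+GFP rats and 462, 655 and 854 in bPYX+NT3 rats. The 3 ranges overlapped, although 2 bPYX+GFP and 4 bPYX+NT3 rats fell below the lowest naïve rat. Relative to naïve rats the level was 0.910-fold (95% interval 0.798 to 1.04) in bPYX+GFP rats (edgeR unadjusted p = 0.148, exact permutation p = 0.162) and 0.848 (0.694 to 1.04) in bPYX+NT3 rats (edgeR unadjusted p = 0.101, exact permutation p = 0.113). Leaving out bPYX+NT3 rat 17 or 23 brought the latter edgeR unadjusted p to 0.0387 or 0.0255, whereas without rat 11 the log2 fold change was -0.15 in place of -0.24, and p over all such fits reached 0.189. The neighbouring copy *Abcb1b* is similar in sequence, and reads that matched several places were not counted, so part of the reads of *Abcb1a* may be missing in all rats alike.

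**Figure D1:**
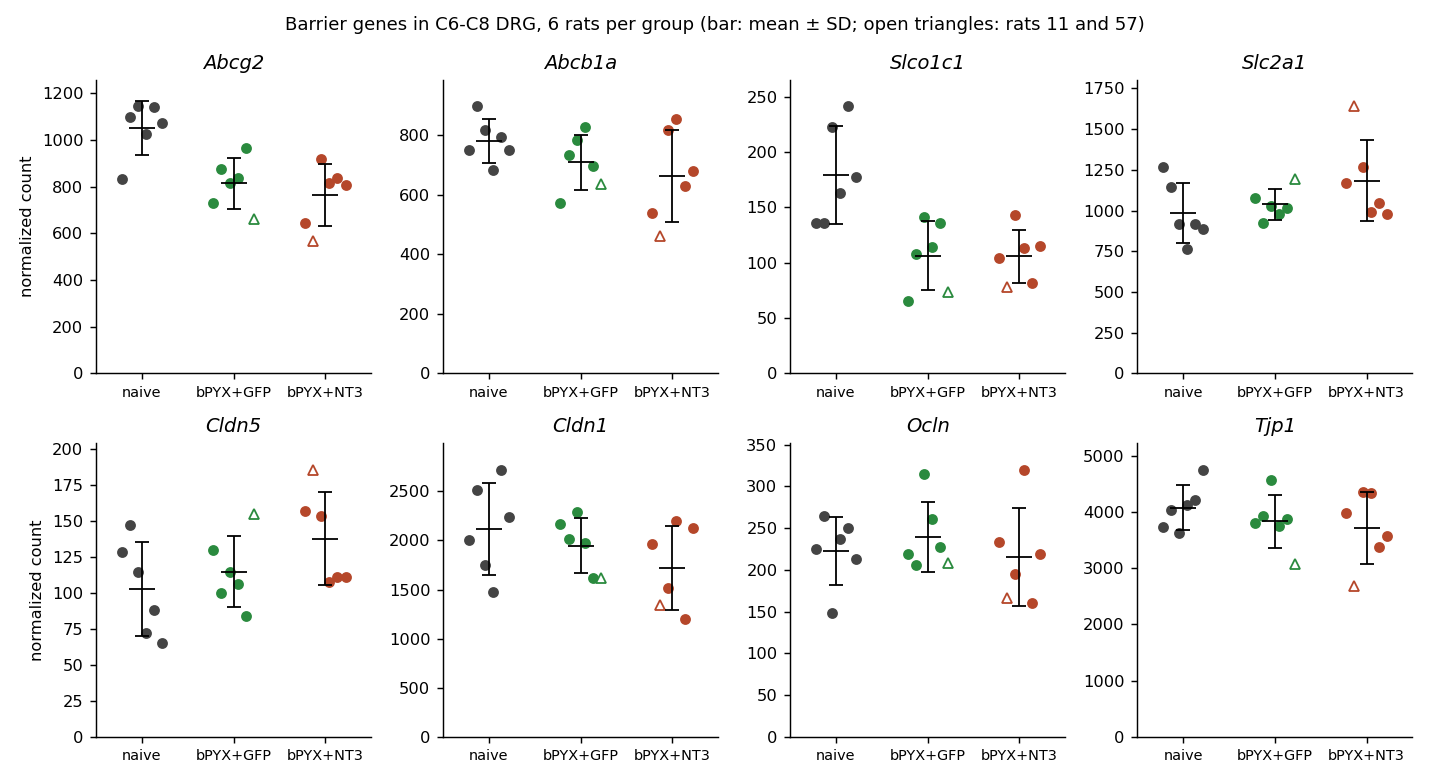
Normalized counts (y axis, from 0) of the 8 genes in each rat of the 3 groups (x axis), with the mean and SD as bars and rats 11 and 57 as open triangles. Abcg2 and Slco1c1 lie lower in the injured groups, as they were chosen to, with all 12 injured rats below the naïve median, while for Slc2a1 all 12 lie above it and for Abcb1a 4 bPYX+NT3 rats lie below the lowest naïve rat.

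Among the carriers, *Slco1c1* (NM_053441) encodes OATP1C1, which brings thyroxine across barrier endothelium. It had 136, 170.5 and 241 normalized counts in naïve rats, 65.6, 111 and 141 in bPYX+GFP rats and 78.0, 109 and 143 in bPYX+NT3 rats. Every injured rat lay below the naïve median, and 5 of 6 rats in each injured group lay below the lowest naïve rat, the exceptions being rats 18 and 17. Relative to naïve rats the level was 0.592-fold in bPYX+GFP rats (log2 fold change -0.76, SE 0.206) and 0.590 in bPYX+NT3 rats (-0.76, SE 0.183), again as a description of the contrast that chose the gene. The injured groups had nearly the same mean, 106 ± 31.2 normalized counts with GFP and 106 ± 24.0 with NT3 (SD, n = 6 each). Their ratio of 0.998 had a 95% interval of 0.735 to 1.35 (edgeR unadjusted p = 0.989, exact permutation p = 0.911), so a difference within that interval in either direction was not excluded.

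*Slc2a1* (NM_138827) encodes GLUT1, the glucose carrier of barrier endothelium and perineurium. Its normalized counts were 766, 918 and 1266 in naïve rats, 924, 1024 and 1195 in bPYX+GFP rats and 977, 1109.6 and 1639 in bPYX+NT3 rats. The direction was opposite to that of *Abcg2* and *Slco1c1*: all 12 injured rats lay above the naïve median, but only 2 bPYX+NT3 rats exceeded the highest naïve rat, and 1 of them, rat 11, stood far above the rest. The fold against naïve rats was 1.06 (95% interval 0.899 to 1.25) with GFP (edgeR unadjusted p = 0.460, exact permutation p = 0.461). With NT3 it was 1.20 (0.975 to 1.49; edgeR unadjusted p = 0.0794, exact permutation p = 0.132). The latter edgeR unadjusted p became 0.0241 without naïve rat 41 and 0.0483 without bPYX+NT3 rat 40, but 0.218 without bPYX+NT3 rat 11, where the log2 fold change was 0.15. With the share of reads on no feature in the model, the log2 fold change between bPYX+NT3 and naïve rats was 0.10 in place of 0.27.

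Of the junction genes, *Cldn5* (NM_031701) encodes the claudin typical of endothelium. It was counted at a low depth of 56 to 238 reads per rat. Its normalized counts were 65.6, 102 and 148 in naïve rats, 83.7, 110.4 and 155 in bPYX+GFP rats and 107, 133 and 186 in bPYX+NT3 rats. All 6 bPYX+NT3 rats lay above the naïve median and 3 of them above the highest naïve rat, while bPYX+GFP rats lay within the naïve range save rat 57. The fold against naïve rats was 1.34 with NT3 (95% interval 0.978 to 1.82; edgeR unadjusted p = 0.0666, exact permutation p = 0.0866) and 1.12 with GFP (0.821 to 1.53; edgeR unadjusted p = 0.446, exact permutation p = 0.413). The NT3 contrast passed an edgeR unadjusted p of 0.05 without naïve rat 41 (0.04734), without naïve rat 42 (0.01945) and without bPYX+NT3 rat 23 (0.0475), and was 0.152 without bPYX+NT3 rat 11. Its log2 fold change was 0.42 in the fit with all rats and 0.21 with the share of reads on no feature in the model. Against bPYX+GFP rats the fold with NT3 was 1.20 (0.914 to 1.57; edgeR unadjusted p = 0.174, exact permutation p = 0.199), and the edgeR unadjusted p was 0.04729 without rat 57. The log2 fold change of 0.26 was 0.15 without rat 11 (edgeR unadjusted p = 0.407) and 0.11 with the share of reads on no feature in the model.

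*Cldn1* (NM_031699) encodes the claudin known from the perineurium and from epithelia. It had 1470.5, 2121 and 2719 normalized counts in naïve rats, 1612, 1996 and 2284 in bPYX+GFP rats and 1199, 1737 and 2193 in bPYX+NT3 rats. The ranges overlapped almost fully, with only 2 bPYX+NT3 rats below the lowest naïve rat. The fold with GFP against naïve rats was 0.922 (95% interval 0.752 to 1.13; edgeR unadjusted p = 0.410, exact permutation p = 0.519). The fold with NT3 was 0.814 (95% interval 0.628 to 1.05; edgeR unadjusted p = 0.110, exact permutation p = 0.158), and the edgeR unadjusted p was 0.03935 without naïve rat 44 and reached 0.247 when another rat was left out.

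*Ocln* (NM_031329), which encodes occludin, varied without a shared direction. It had 148, 231 and 264 normalized counts in naïve rats, 206, 223 and 315 in bPYX+GFP rats and 159.8, 207 and 319.8 in bPYX+NT3 rats. Its fold was 1.08 (95% interval 0.875 to 1.32) with GFP and 0.964 (0.745 to 1.25) with NT3 against naïve rats (exact permutation p = 0.528 and 0.727). *Tjp1* (NM_001106266) had 3619.6, 4075 and 4749 normalized counts in naïve rats, 3079, 3835 and 4558 in bPYX+GFP rats and 2689, 3771 and 4348 in bPYX+NT3 rats. The lowest rat of each injured group was the 1 with the lowest no-feature share there, rat 57 or rat 11. Its fold was 0.943 (0.833 to 1.07) with GFP and 0.913 (0.776 to 1.07) with NT3 against naïve rats (exact permutation p = 0.351 and 0.271), the narrowest intervals among the junction genes. Between the injured groups the folds of *Cldn1*, *Ocln* and *Tjp1* with NT3 were 0.884, 0.898 and 0.968 (exact permutation p = 0.262, 0.351 and 0.695), and those of *Slc2a1* and *Abcb1a* 1.14 and 0.933 (exact permutation p = 0.221 and 0.478).

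A gene was called where its p was below 0.05 before adjustment (edgeR, quasi-likelihood). By this rule 0 of the 6 genes not chosen on their level were called between bPYX+GFP and naïve rats, beside 377 of 11601 genes tested (3.25%), of which 85 were higher and 292 lower. Between bPYX+NT3 and naïve rats 0 of 6 were called, with 703 of 11693 genes (6.01%) called in all, 361 higher and 342 lower. For NT3 against GFP 0 of 8 were called, with 201 of 11623 genes (1.73%) called in all. After Benjamini-Hochberg adjustment 0 genes passed 0.05 in any of the 3 comparisons by this test; the likelihood ratio test gave 13, 0 and 0 and DESeq2 16, 0 and 0. The first pair of comparisons shares the naïve rats, and each injured group enters 2 comparisons, so the 3 sets of values are not independent.

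The median log2 fold change of the 6 genes was 0.00 with GFP and -0.09 with NT3 against naïve rats, beside 0.01 and 0.00 over all genes tested. For all 8 genes between the injured groups it was -0.07, beside 0.00 over all genes. No gene of the 8 had every injured rat of a group below every naïve rat, which 27 of 11601 genes (0.233%) had with GFP and 18 of 11693 (0.154%) with NT3.

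**Figure D2:**
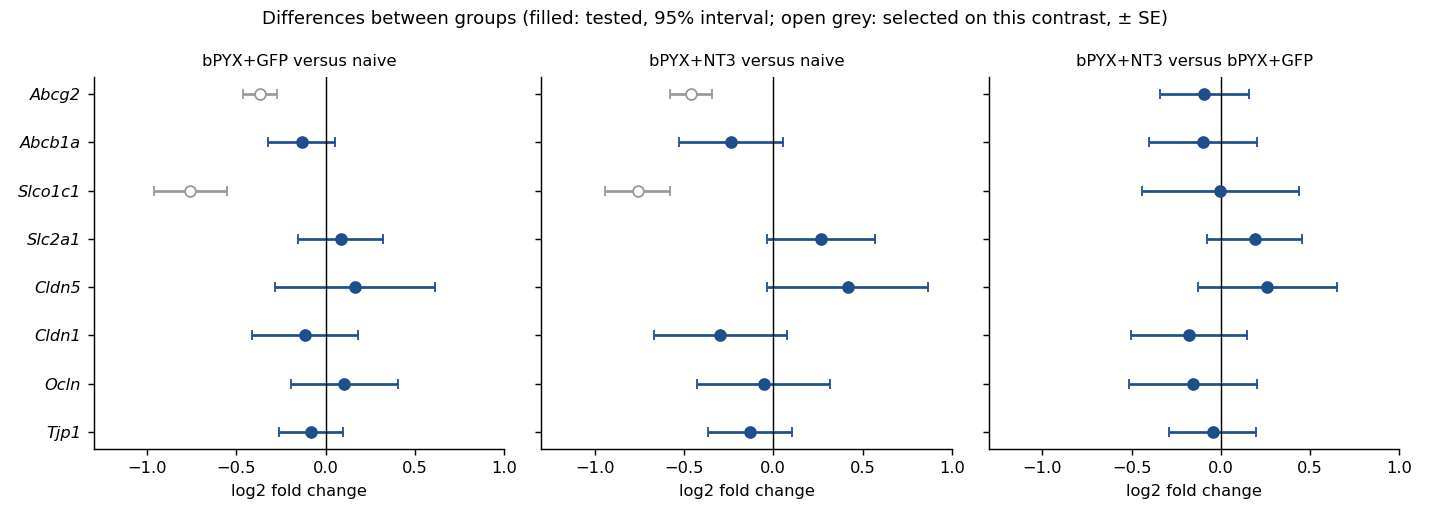
Log2 fold changes (x axis) of the 8 genes (y axis) in the 3 comparisons. Filled points carry the 95% interval of the edgeR fit and all of these intervals include 0, while open grey points with their SE are the contrasts on which Abcg2 and Slco1c1 were chosen.

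Across the 18 rats some of the genes varied together. *Slc2a1* and *Cldn5* varied together (Pearson r of log2 CPM 0.86, and 0.83 with the group means removed). *Abcg2* varied with *Slco1c1* (0.84, and 0.69 with the group means removed) and with *Abcb1a* (0.75 and 0.72). *Cldn1* varied with *Ocln* (0.65 and 0.68), and *Tjp1* had a positive r of 0.57 to 0.64 with 5 genes. *Slc2a1* and *Cldn5* ran against *Abcg2*, at -0.67 and -0.66. *Ocln* had an r of 0.07 with *Abcg2*, 0.13 with *Slco1c1* and 0.43 with *Abcb1a*, and of -0.24 with *Slc2a1* and -0.21 with *Cldn5*. The part of the *Abcg2* and *Slco1c1* value that lies between groups follows from how they were chosen, and all values share library, depth and scaling, so these correlations are a description over 18 rats with no p.

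**Figure D3:**
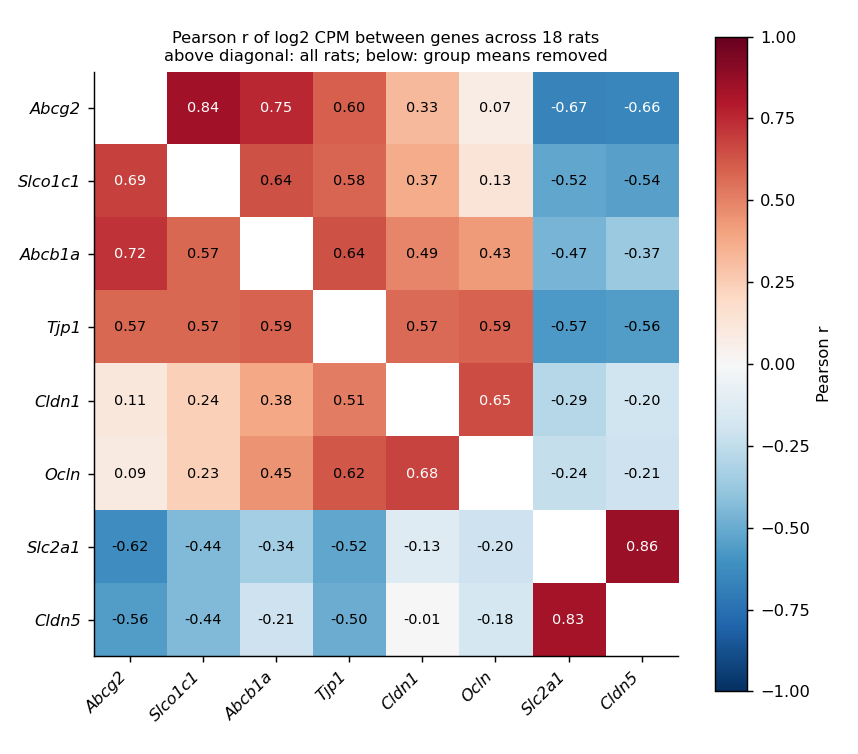
Pearson r of log2 CPM between each pair of the 8 genes over 18 rats, above the diagonal for all rats and below it after removing group means. Slc2a1 and Cldn5 form a pair (0.86) that runs against Abcg2 (-0.67 and -0.66) and the other transporters.

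Several of the genes also varied with the no-feature share of the libraries. Over the 18 rats *Slc2a1* and *Cldn5* had an r of -0.82 and -0.81 with that share, and *Tjp1* 0.84 and *Abcg2* 0.62. Without rats 11 and 57 these values were -0.68, -0.77, 0.55 and 0.24. *Slco1c1* had an r of 0.50, *Abcb1a* 0.53, *Ocln* 0.47 and *Cldn1* 0.45, and the part of this share in the differences between groups was tested only as a covariate. With it as a covariate, the log2 fold change of *Abcg2* against naïve rats was -0.36 with GFP and -0.37 with NT3, and that of *Slco1c1* -0.74 and -0.64. With rats 11 and 57 both left out, a choice made after seeing the data, 0 of 8 genes were called between bPYX+NT3 and bPYX+GFP rats.

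**Figure D4:**
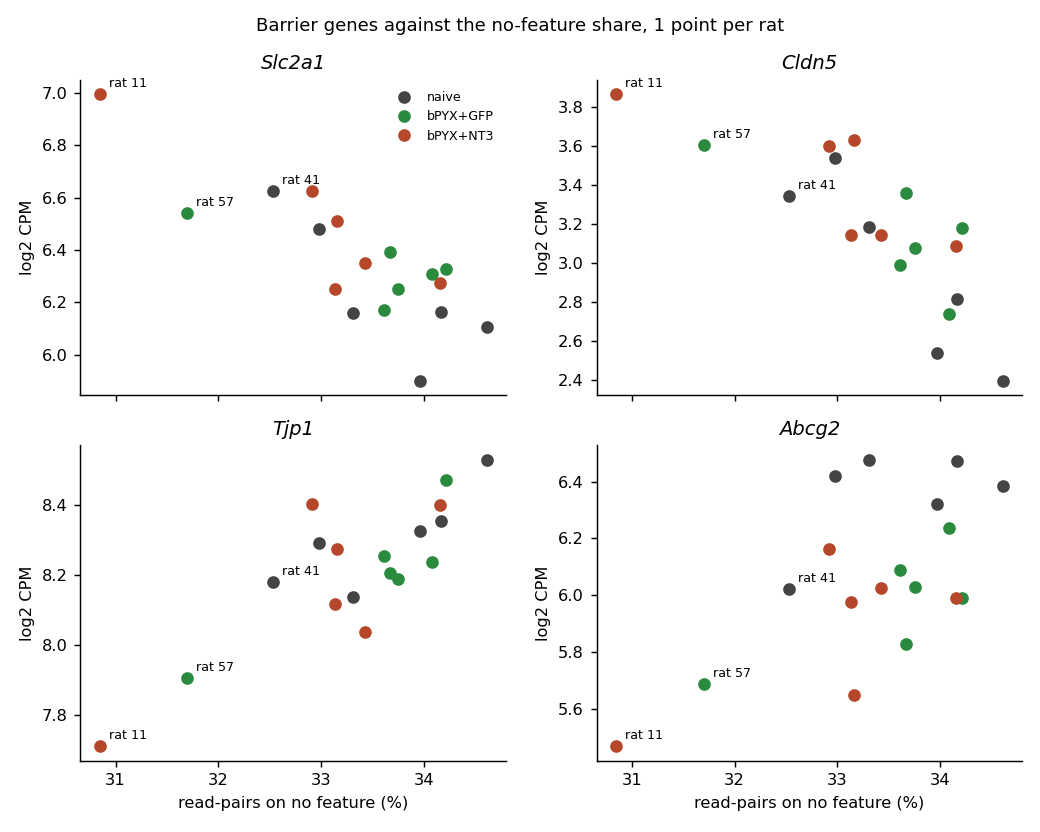
Log2 CPM (y axis) of 4 genes against the percentage of read-pairs on no feature (x axis), 1 point per rat, coloured by group, with rats 11, 41 and 57 named. Slc2a1 and Cldn5 fall and Tjp1 rises with the share (r of -0.82, -0.81 and 0.84). Abcg2 was chosen for its lower level in injured rats, and its naïve rats other than rat 41 lie above all injured rats.

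For each gene the 3 most similar of 11821 genes were found by Pearson r of log2 CPM over the 18 rats. They were *Hacl1* (0.92), *Rcn1* (0.91) and *Dpy19l1* (0.90) for *Abcg2*, and *B3gnt5* (0.91), *Tgm4* (0.88) and *Cttnbp2* (0.88) for *Slco1c1*. For *Abcb1a* they were *Lum* (0.90), *Slco1a4* (0.87) and *Tubd1* (0.86), that is a connective tissue proteoglycan, an organic anion carrier of brain endothelium and a tubulin. The closest genes to *Slc2a1* were *Pygo2* (0.95), *Ell* (0.93) and *Prkab1* (0.92), and those to *Cldn5* were *Bcl9l*, *P3h3* and *Use1* (0.94 each). None of the endothelial markers was among these genes, but with only 3 of 11821 genes taken for each, this says little about them. *Cldn1* was closest to the unnamed NM_001107954 (0.86), *Frmd6* (0.85) and *Agtr1a* (0.84), *Ocln* to *Bmp5* (0.87), *Arhgap29* (0.85) and *Pon3* (0.84), and *Tjp1* to *Zc3h11a*, *Reep3* and *Rbpj* (0.92 each).

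The other transporters of barrier cells gave few calls. None of 11 ABC transporters, such as *Abcc1*, *Abcc4* and *Abcg1*, was called in any comparison, and their median log2 fold change was 0.03, 0.08 and 0.04 with GFP against naïve, NT3 against naïve and NT3 against GFP. Of 17 solute carriers tested, 1 was lower with GFP and 3 with NT3 against naïve rats, 0 were higher, and 0 were called between the injured groups. Their median log2 fold change was 0.06 and 0.10 against naïve rats and 0.02 for NT3 against GFP. Over all genes tested 3.25%, 6.01% and 1.73% were called in the same 3 comparisons. *Slco1a4*, a carrier of organic anions and thyroid hormone in brain endothelium, ranged from 1359 to 1861 normalized counts in naïve rats, from 1001.5 to 1563 with GFP and from 755 to 1512 with NT3. It was lower with GFP (log2 fold change -0.32, SE 0.119, edgeR unadjusted p = 0.0176) and with NT3 (-0.49, SE 0.161, edgeR unadjusted p = 0.00868), with overlap in both cases. The zinc exporter *Slc30a1* (-0.25, SE 0.0985, edgeR unadjusted p = 0.0230) and the thiamine carrier *Slc19a3* (-0.43, SE 0.187, edgeR unadjusted p = 0.0363) were lower with NT3 against naïve rats, and the contrast between the injured groups gave edgeR unadjusted p of 0.218 and 0.512.

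Genes of vesicle transport moved in both directions. Of 10 tested, 4 were higher and 2 lower with NT3 against naïve rats, 1 was lower with GFP, and 0 of 9 were called between the injured groups. The shares of all genes called in these comparisons were 6.01%, 3.25% and 1.73%. Their median log2 fold change was 0.23, 0.10 and 0.15 in the same order, beside 0.00, 0.01 and 0.00 over all genes tested. *Plvap*, whose product forms the diaphragms of fenestrated endothelium, had 18.7 ± 5.24 normalized counts in naïve rats, 21.5 ± 5.64 with GFP and 28.5 ± 7.56 with NT3 (SD, n = 6 each). Its log2 fold change with NT3 against naïve rats was 0.62 (SE 0.229, edgeR unadjusted p = 0.0173). *Ager*, which encodes a receptor for glycated proteins, had means of only 11.1 normalized counts in naïve rats, 16.1 with GFP and 18.1 with NT3. On the log2 scale it was higher by 0.68 with NT3 than in naïve rats (SE 0.266, edgeR unadjusted p = 0.0225). With GFP it stood at 0.55 (edgeR unadjusted p = 0.145), and NT3 against GFP gave 0.15 (edgeR unadjusted p = 0.685). The lipoprotein receptor *Scarb1* (0.42) and the insulin receptor *Insr* (0.17) were the other higher genes with NT3 against naïve rats. The transferrin receptor *Tfrc* (-0.29) was lower there. The caveolin gene *Cav2* fell by 0.35 on the log2 scale with NT3 (SE 0.120, edgeR unadjusted p = 0.0108) and was at -0.20 with GFP (edgeR unadjusted p = 0.137). The tested identifier of *Cav1* had a mean of only 15.2 normalized counts in naïve rats. It fell by 0.54 with GFP (SE 0.176, edgeR unadjusted p = 0.0198) and was at -0.29 with NT3 (edgeR unadjusted p = 0.224). A further *Cav1* identifier, at a naïve mean of 0.903, was not tested. Read-pairs given to several genes were left out, so these values need not be the level of the whole gene.

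Of 22 other tight junction genes tested, 3 were lower with GFP, 2 with NT3 against naïve rats and 1 with NT3 against GFP, and 0 were higher. The shares of all genes called in these comparisons were 3.25%, 6.01% and 1.73%, and most calls with GFP against naïve rats were also lower (292 of 377). *Cldn20* fell by 0.69 with GFP (SE 0.252, edgeR unadjusted p = 0.0159) and by 0.65 with NT3 (SE 0.204, edgeR unadjusted p = 0.00698) on the log2 scale. The scaffold gene *Mpdz* fell by 0.15 and 0.18 (edgeR unadjusted p = 0.0354 and 0.0266). *Cldn19*, the claudin of Schwann cells, fell by 0.43 with GFP (edgeR unadjusted p = 0.0329), and *Cldn11*, known from myelin and meninges, was lower with NT3 than with GFP (-0.53, SE 0.228, edgeR unadjusted p = 0.0364). Of 13 adherens and gap junction genes 1 was higher and 2 lower with GFP against naïve rats, namely *Afdn* (0.12), *Ctnna1* (-0.15) and *Gjc1* (-0.34), and 0 were called in the comparisons with NT3.

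Of 17 genes of Wnt signalling and transcription in barrier endothelium, 1 was lower with GFP against naïve rats (*Tcf7l1*, -0.31, edgeR unadjusted p = 0.0284) and 1 with NT3 against GFP (*Foxc1*, -0.36, edgeR unadjusted p = 0.0488). Of 15 identifiers of thyroid hormone handling tested (*Thra* has more than 1), the pathway that OATP1C1 serves, 1 was called. This was *Thrsp*, a gene of fat synthesis, at 3.72 to 255 normalized counts in naïve rats, 5.30 to 454 with GFP and 2.72 to 19.6 with NT3 (-3.18 for NT3 against naïve, SE 0.805, edgeR unadjusted p = 0.00146). Its values spanned a wide range among naïve and among bPYX+GFP rats. Of 8 xenobiotic receptor genes and their targets, 1 was lower with GFP against naïve rats (*Ahrr*, -0.35) and 3 were higher with NT3 against GFP, namely *Ahrr* (0.38), *Ahr* (0.25) and *Cyp1b1* (0.35). With NT3 against naïve rats these 3 were at 0.02, 0.07 and 0.20 (edgeR unadjusted p = 0.884, 0.507 and 0.257). Of all genes tested, 3.25% were called with GFP against naïve rats, 6.01% with NT3 against naïve rats and 1.73% with NT3 against GFP.

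**Figure D5:**
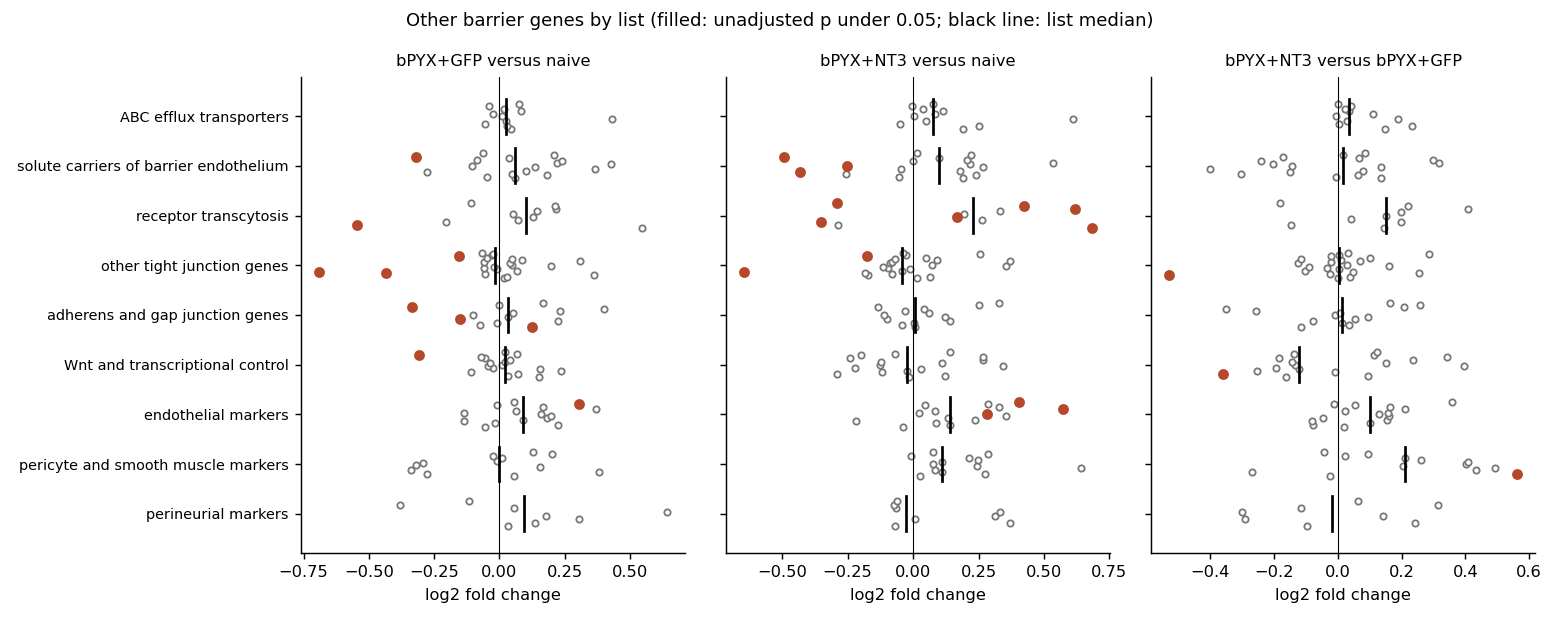
Log2 fold changes (x axis, a separate range in each panel) of single genes in 9 lists (y axis) for the 3 comparisons, with filled points for an edgeR unadjusted p under 0.05 and a black line at the list median. ABC transporters hold no filled point, and the 3 filled points of other tight junction genes with GFP lie below 0, as did 292 of the 377 calls over all genes.

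Markers of the cells that carry the barrier were examined next. Of 15 endothelial markers 1 was higher with GFP against naïve rats (*Tie1*, log2 fold change 0.30, edgeR unadjusted p = 0.0406) and 3 with NT3 (*Flt1* 0.28, *Vwf* 0.41 and *Nos3* 0.57, edgeR unadjusted p = 0.0326, 0.0396 and 0.0480), and 0 were lower. The median log2 fold change of the list was 0.09 with GFP and 0.14 with NT3, beside 0.01 and 0.00 over all genes tested, and *Emcn* was at -0.14 and -0.22 without being called. Of all genes tested, 3.25% were called with GFP and 6.01% with NT3 against naïve rats. Over the 18 rats the r with the summed endothelial markers was 0.49 for *Cldn5*, 0.43 for *Slc2a1*, -0.16 for *Abcg2* and -0.26 for *Slco1c1*, and the last 2 values include the difference on which these genes were chosen.

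Of 8 perineurial markers tested 0 were called in any comparison. The sum over all 10 such markers in the count table ran from 3489 to 6139 normalized counts in naïve rats. It ran from 3209 to 6353 with GFP and from 3518 to 6583 with NT3. *Cldn5* and *Slc2a1* had an r of 0.80 and 0.79 with that sum. Their r was 0.78 and 0.70 with the summed pericyte and smooth muscle markers and 0.85 and 0.74 with the summed ABC transporters. With the summed genes of vesicle transport it was -0.91 and -0.85, and with the no-feature share -0.81 and -0.82. Each such sum follows its most abundant genes, so these r do not describe every gene of a list. Among the vesicle transport genes, *Tfrc* had a naïve mean of 7718 normalized counts and *Plvap* 18.7. Among 13 pericyte and smooth muscle markers 1 was higher with NT3 than with GFP (*Acta2*, 0.56, edgeR unadjusted p = 0.0499). The 10 myelinating Schwann cell markers were in sum 49343 to 69461 normalized counts in naïve rats, 43904 to 54992 with GFP and 48516 to 55235 with NT3, and 3 were lower with GFP against naïve rats, namely *Pmp22* (-0.31), *Cldn19* (-0.43) and *Egr2* (-0.30). *Pmp22* was also lower with NT3 against naïve rats (-0.31). The 13 meningeal and connective tissue markers had a median log2 fold change of 0.36 with GFP and -0.08 with NT3 against naïve rats, and members not called with GFP reached 0.60 (*Slc22a6*) and 0.50 (*Ptgds*), named after their values were seen. Of these markers, 2 were lower and 1 higher with GFP and 2 lower with NT3 against naïve rats, with *Col1a1* at -0.49 and -0.34, *Lum* at -0.23 and *Zic1* at 0.75 with GFP, and *Dcn* at -0.28 with NT3. With NT3 against GFP 2 of these were lower, *Cldn11* and *Zic2* (-0.51). Of 8 neuron markers 1 was higher with NT3 against naïve rats (*Avil*, 0.19), of 9 macrophage markers 1 was lower with GFP (*Cx3cr1*, -0.47), and of 6 satellite glia markers 1 was higher with NT3 than with GFP (*Kcnj10*, 0.42). None of 3 blood cell markers was called. Of all genes tested, 3.25% were called with GFP against naïve rats, 6.01% with NT3 against naïve rats and 1.73% with NT3 against GFP. The summed satellite glia markers were mostly *Glul* and *Cdh19* (naïve means 5285 and 4655 normalized counts). *Slc1a3* and each identifier of *Apoe* had means under 10, so that sum hardly holds them. The r of *Abcg2* and *Slco1c1* was 0.42 and 0.52 with the summed Schwann cell markers and 0.65 and 0.53 with the summed satellite glia markers. With the summed neuron markers it was -0.72 and -0.65. With the perineurial, pericyte, meningeal, macrophage and blood cell sums it lay between -0.49 and 0.24. All of these values include the difference on which the 2 genes were chosen. The part of these cell types in the lower levels was not tested.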

How the data were processed

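Poly(A) RNA libraries of 18 rats were analysed, 6 per group. The authors mapped read-pairs of 50 bp to the Rnor_6.0 genome by TopHat2, dropped duplicates with Picard, counted read-pairs per RefSeq identifier with HTSeq and deposited raw counts, which were not normalized. Rats were grouped by the column headings of the count table, which match the sample descriptions in the labels; the deposited counts per rat were identical to these columns in 18 of 18 rats, but for 17 rats they are recorded under a title of another group, which was tried as an alternative grouping. Symbols came from RefSeq (assembly GRCr8) for 14193 of 15075 identifiers (94.1%). Read-pairs that HTSeq gave to no feature (30.8% to 34.6%), to several genes (2.79% to 3.41%) or to several locations (19.0% to 22.3%) were left out. The HTSeq strand setting is not given in the sources used here.

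Each pair of groups was fitted in R 4.3.3 with edgeR 4.0.16 (TMM, glmQLFit, glmQLFTest; genes counted above 10 reads in 6 or more of 12 rats; Benjamini-Hochberg adjustment over all genes tested). Intervals of 95% used the standard error and degrees of freedom of the fit. Exact permutation tests were two-sided on log2 CPM (prior count 2), and the smallest p they can give is 0.002165. Rats are separate animals. Promoters came from RefSeq tables, and correlations were computed with Python 3.11.15, pandas 2.3.3 and numpy 2.4.6. On simulated data with 200 genes doubled, recovery was counted at a Benjamini-Hochberg adjusted p under 0.05. The test recovered 92% of them for bPYX+GFP against naïve (11539 genes, 9 false calls). It recovered 84.5% for bPYX+NT3 against naïve (11638 genes, 6) and 82% for bPYX+NT3 against bPYX+GFP (11571 genes, 10). Of the unchanged genes, 4.75%, 5.15% and 4.88% had an unadjusted p under 0.05. Differences smaller than a doubling were not simulated, while the folds tested for the barrier genes lay between 0.814 and 1.34. The simulation therefore does not give the power to call these genes by unadjusted p.

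The 8 genes, the 17 gene lists and the tests were chosen with earlier results of these data known. The genes named are the 8, from each list up to 4 genes with the smallest p under 0.05 in any comparison, and the 3 genes most correlated with each of the 8. Other genes named as examples of a list were chosen without such a rule. The result of 1 gene that this rule names is not reported here. Alternatives were the likelihood ratio test, DESeq2 1.42.0, RLE factors or library size alone, 3 other filters, 1 fit over the 3 groups, robust estimation, the no-feature share as a covariate, the recorded titles and leaving out each rat; leaving out rats 11 and 57 together was added after seeing the data.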

Additional observations from a re-analysis of the deposited data

Results flagged for a closer look

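Of 24 sets of 6 rats (8 genes in 3 groups), 2 held a rat that stood apart by Dixon's criterion on log2 CPM, which chance meets in about 1 of 20 sets. *Abcg2* was low in naïve rat 41 (834 normalized counts), where the gap to the next rat made up 0.659 of the range of the group. Without that rat the log2 fold change of *Abcg2* was -0.43 with GFP and -0.52 with NT3 against naïve rats, a description of the contrasts that chose the gene. *Ocln* was low in naïve rat 43 (148 normalized counts, 0.628 of the range). When it was left out, the log2 fold change was 0.01 with GFP and -0.14 with NT3.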

How the results depend on the processing

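Apart from leaving out single rats, 250 log2 fold changes of the 8 genes kept their direction and 22 reversed. Those that kept it also stayed on the same side of the threshold where they were tested. For *Abcg2* and *Slco1c1* against naïve rats, which were not tested, they moved by less than the SD of log2 CPM among naïve rats. Most reversals came from the recorded titles, which the study did not use to form its groups. Under these, the log2 fold changes with GFP against naïve rats were 0.20 (*Abcg2*), 0.12 (*Slco1c1*), -0.16 (*Slc2a1*), 0.24 (*Abcb1a*), -0.25 (*Cldn5*) and 0.0863 (*Cldn1*). With NT3 against naïve rats they were 0.40 (*Abcg2*), 0.66 (*Slco1c1*), -0.32 (*Slc2a1*), 0.16 (*Abcb1a*), -0.53 (*Cldn5*), 0.016 (*Cldn1*) and 0.0205 (*Tjp1*). With NT3 against GFP they were 0.2060 (*Abcg2*), 0.55 (*Slco1c1*), -0.1585 (*Slc2a1*), -0.28 (*Cldn5*) and 0.0603 (*Tjp1*). Under the titles 2 genes were called with NT3 against naïve rats (*Slc2a1* and *Cldn5*) and 1 with NT3 against GFP (*Slco1c1*), in place of 0. With the share of reads on no feature in the model, *Ocln* was at 0.0272 with NT3 against naïve rats, and *Slco1c1* and *Tjp1* at 0.13 and 0.0484 with NT3 against GFP. With library size alone *Slco1c1* was at 0.0415 there. The cause was not tested.

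Leaving out each rat gave 0 to 0, 0 to 2 and 0 to 1 called genes in the 3 comparisons, 12 reversed values and 9 newly past the threshold. The log2 fold change ran from -0.20 to 0.02 for *Ocln* with NT3 against naïve rats, and with NT3 against GFP from -0.11 to 0.0911 for *Slco1c1* and from -0.10 to 0.0279 for *Tjp1*. For *Abcg2* it ran from -0.43 to -0.32 with GFP and -0.52 to -0.39 with NT3 against naïve rats, and for *Slco1c1* from -0.85 to -0.65 and -0.86 to -0.66. No paired analysis was possible because the columns of the count table carry rat numbers that no 2 groups share. At 56 to 238 reads per rat, *Cldn5* had wide intervals.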
